A study of Homo sapiens with 12 samples.

Results

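A set of 8 genes that move calcium across the membranes of the endoplasmic reticulum (ER) and the Golgi, or that couple the ER store to calcium entry, was followed across 4 groups of human breast cells. The genes were chosen by name and comprised the pumps ATP2A2 and ATP2C1, the release channels ITPR1, ITPR2 and ITPR3, the store sensors STIM1 and STIM2 and the entry channel ORAI1. These are 8 of the 26357 genes whose names were alike in the 4 deposited tables, and all 8 passed the filter on low values. RNA sequencing covered 12 libraries, described as biological triplicates, from 2 derivatives of HMLE, a line of immortalised mammary epithelium. HMLE-Twist, labelled EMT (epithelial to mesenchymal transition), and HMLE-pBp, labelled nonEMT, were each given DMSO (mock) or salinomycin at 0.2 uM for 24 h. Salinomycin is a polyether antibiotic that carries cations, potassium above all, across membranes. All groups were grown in the same serum-containing HMLE medium. The sources used here do not say which promoter drives TWIST1 or whether either line is a single clone.

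The cytosol holds little free calcium, while the ER lumen is filled by SERCA pumps and the Golgi by SPCA pumps. Inositol trisphosphate (IP3), made by phospholipase C when surface receptors are engaged, opens IP3 receptors in the ER membrane and lets stored calcium out. STIM proteins sense the emptied store from within the ER membrane, cluster where it meets the plasma membrane, and open ORAI channels, a process called store-operated calcium entry. Breast epithelium also relies on calcium pumps of the Golgi and the plasma membrane to load milk with calcium.

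The libraries held 17.9 to 26.7 M recovered reads each; since the authors normalized each group's table separately, levels compared across groups rest on these reads, scaled together. TWIST1, the gene that defines the HMLE-Twist line, averaged 729 FPKM (fragment counts scaled for gene length and library size, here by median ratios over all 12 libraries) in HMLE-Twist mock and 2.55 FPKM in HMLE-pBp mock libraries. The summed level of 10 epithelial markers ranged from 30.7 to 31.8 FPKM in HMLE-Twist mock and from 2827 to 3252 FPKM in HMLE-pBp mock libraries, and that of 10 mesenchymal markers from 3811 to 4715 and from 290.8 to 325.4 FPKM. After salinomycin the epithelial sum ranged from 27.4 to 34.6 FPKM in HMLE-Twist and from 2496 to 2650 FPKM in HMLE-pBp, and the mesenchymal sum from 4616 to 5376 and from 289.2 to 350.3 FPKM. With salinomycin 1 epithelial marker fell in HMLE-Twist (KRT5, -1.08 on the log2 scale), and 1 rose (ESRP1, 0.51) and 2 fell (EPCAM, -0.62, and CLDN4, -0.58) in HMLE-pBp. Among mesenchymal markers FN1 rose by 0.61 and COL3A1 fell by 1.61 in HMLE-Twist, and CDH2 fell by 0.35 in HMLE-pBp. The part of these marker changes in the salinomycin results was not tested. Of 6 leukocyte and 6 endothelial markers, CD14 was the exception among values under 2 FPKM, at a mean of 23.2 FPKM in HMLE-pBp mock and 11.6 FPKM in HMLE-pBp salinomycin libraries. The leukocyte marker TYROBP was at 0 in all 12 libraries. Along the second principal component, which carried 5.14% of the variance, HMLE-pBp salinomycin replicate 1 lay at -27.2 and the other libraries of its group at -13.7 and -5.88.

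In mock libraries all 8 genes were lower in HMLE-Twist than in HMLE-pBp, from -0.73 for ATP2C1 to -2.19 for ITPR3 on the scale of log2(FPKM + 1), as were 37.2% of all tested genes. Salinomycin raised 2 of the 8 in HMLE-Twist, ITPR3 by 0.98 and ITPR1 by 0.45, where 12.8% of tested genes rose and 13.5% fell, while neither passed the test in HMLE-pBp. In HMLE-pBp, ORAI1 fell by 0.71, close to the threshold of the test, and its relative ORAI3 rose by 1.25, where 9.29% of tested genes fell and 9.49% rose. Both pumps and both STIM genes missed the threshold in either line in the unpaired test. With replicates paired within each line, ATP2A2 and STIM1 also fell in HMLE-pBp, by -0.29 and -0.23. That pairing raised the genes called there from 2209 to 4287. A gene is said to have risen, fallen or differed where limma, a linear model fitted to all 11765 tested genes with Benjamini-Hochberg adjustment, gave an adjusted p under 0.05.

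Promoter windows are shown for ITPR3 and ITPR1, which rose together in HMLE-Twist, and for ATP2A2. ATP2A2, the most abundant of the 8 genes, missed the threshold in the unpaired test while the ER stress gene HSPA5 rose. With replicates paired within each line, ATP2A2 fell in HMLE-pBp by -0.29. Each window runs from 250 bases before to 50 bases after a start site in the RefSeq table (build GRCh38.p14, plus strand, 5′ to 3′), at chr6:33621072-33621371 for ITPR3, chr3:4493098-4493397 for ITPR1 and chr12:110280997-110281296 for ATP2A2. Capitals mark CCAAT and CCACG, the letters at either end of the ER stress response element, on either strand.
ITPR3: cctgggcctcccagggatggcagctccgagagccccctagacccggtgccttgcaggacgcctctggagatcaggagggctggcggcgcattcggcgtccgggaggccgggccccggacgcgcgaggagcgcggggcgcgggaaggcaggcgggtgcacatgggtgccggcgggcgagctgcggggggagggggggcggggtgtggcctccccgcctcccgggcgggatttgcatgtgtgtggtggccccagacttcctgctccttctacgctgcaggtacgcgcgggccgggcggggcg
ITPR1: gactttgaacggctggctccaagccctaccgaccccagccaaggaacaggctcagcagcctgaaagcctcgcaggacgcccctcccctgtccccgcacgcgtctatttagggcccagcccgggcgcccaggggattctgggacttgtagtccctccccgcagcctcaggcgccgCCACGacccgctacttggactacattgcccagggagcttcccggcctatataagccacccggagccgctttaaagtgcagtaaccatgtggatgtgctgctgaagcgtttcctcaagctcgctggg
ATP2A2: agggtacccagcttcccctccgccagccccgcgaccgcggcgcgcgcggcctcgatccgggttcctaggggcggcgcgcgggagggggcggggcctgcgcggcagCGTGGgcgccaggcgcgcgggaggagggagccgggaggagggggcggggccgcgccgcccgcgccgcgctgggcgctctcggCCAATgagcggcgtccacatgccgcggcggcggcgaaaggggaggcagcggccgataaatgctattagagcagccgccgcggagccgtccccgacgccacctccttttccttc

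The table held 12 windows for 6 of the 8 genes. CG pairs numbered 33 in the ITPR3 window, 19 in the ITPR1 window and 49 in the ATP2A2 window shown, where the median over all 35116 windows was 14. ATP2A2 had another window, at chr12:110280366-110280665, with 14 CG pairs and none of the motifs searched. Of the elements that ER and Golgi stress or cyclic AMP act through, none was found in any of the 12 windows on either strand: the ER stress element (CCAAT and CCACG with 9 bases of any kind between them, in 0.0769% of all windows), its second form (ATTGG and CCACG with 1 base between them, 0.0541%), the Golgi stress core (ACGTGGC, 3.22%), the cyclic AMP element (TGACGTCA, 1.85%) and the C/EBP-ATF element (TGATGCAA, 0.866%). CCAAT lay in 3 of the 12 windows and in 34.6% of all windows, and CCACG in 5 of 12 and in 38.1%. These last letters lie inside the ER stress element and its second form, so the counts are not separate, and they were searched after the data had been seen. The ATP2A2 window shown held CCAAT and, on the other strand, CCACG, in an arrangement other than the full element. On the strand shown, CCAAT and 9 further bases were followed by CCACA, where the full element has CCACG. Only exact letters were searched, so near matches of this kind were not counted in any window.

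**Figure D1:**
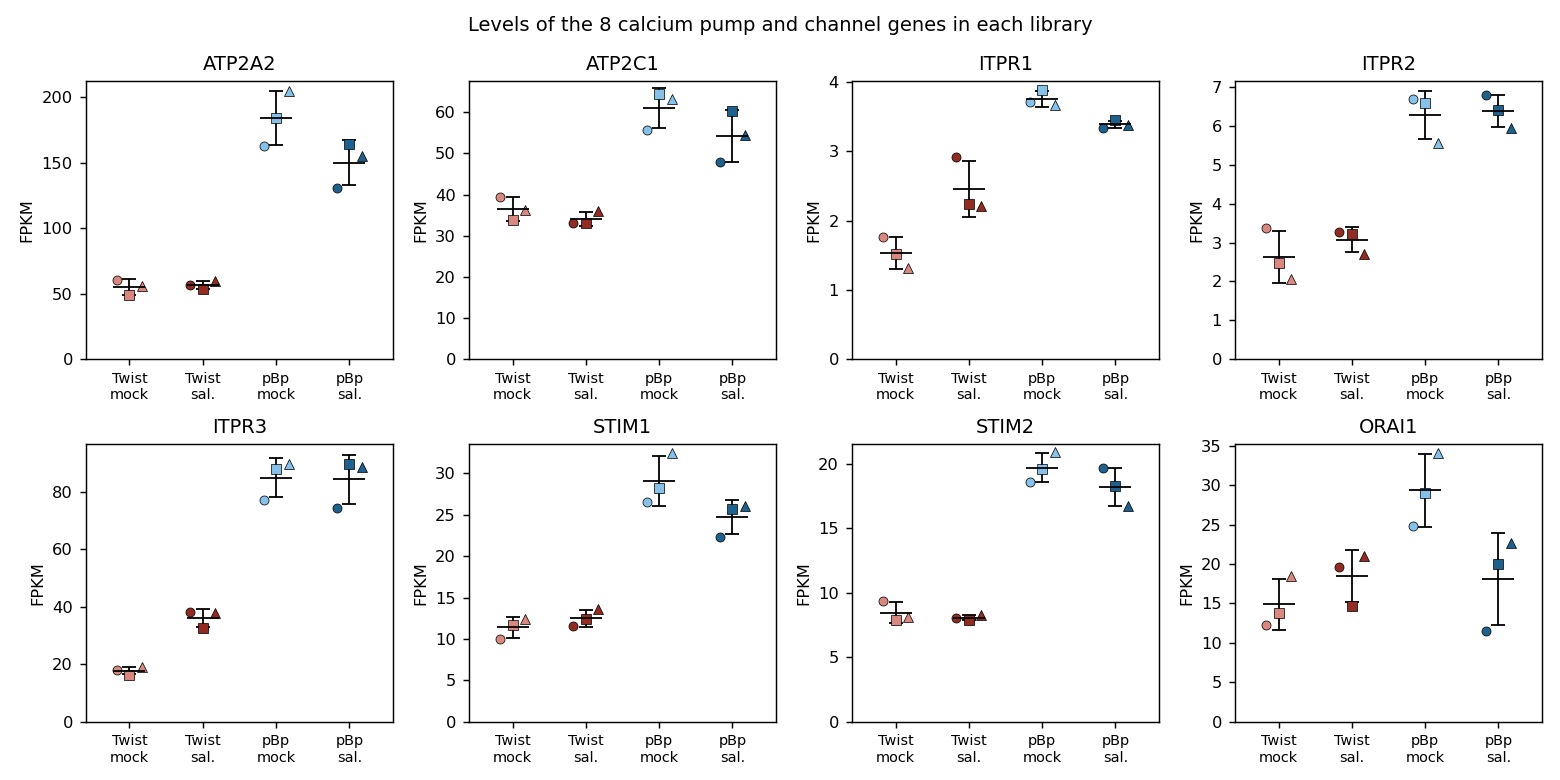
Level of each of the 8 genes (vertical axis, FPKM, each from 0 with its own range) in the 12 libraries, grouped by line and treatment (sal., salinomycin). Circles, squares and triangles are replicates 1, 2 and 3, long dashes are means and bars are SD (n = 3). In the mock groups the HMLE-Twist libraries lie below the HMLE-pBp libraries in every panel, and ITPR3 rises from about 18 to 36 FPKM in HMLE-Twist.

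The IP3 receptors were the release channels of interest, since ryanodine receptors, the other release channels of the ER, stayed under 1 FPKM. ITPR3 encodes the type 3 receptor, which is common in epithelia. It stood at 18.1, 16.4 and 18.9 FPKM in the HMLE-Twist mock libraries and at 38.1, 32.6 and 38.0 FPKM after salinomycin. In HMLE-pBp it stood at 77.2, 88.1 and 89.8 FPKM in mock and at 74.6, 89.9 and 88.9 FPKM after salinomycin. All salinomycin libraries of HMLE-Twist lay above all mock libraries of that line and below every HMLE-pBp library, while the HMLE-pBp groups overlapped. In HMLE-Twist 40.1% of tested genes did not overlap between treatments. The rise in HMLE-Twist was 0.98 ± 0.10 (log2, SE; 1.98-fold; adjusted p = 5.38e-05 by limma), and the change in HMLE-pBp was -0.01 ± 0.10 with a 95% interval of -0.23 to 0.21 (adjusted p = 0.955). The difference of the responses, 0.99 ± 0.14 (HMLE-Twist minus HMLE-pBp), was itself past the threshold (adjusted p = 0.00167).

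ITPR1, the type 1 receptor best known from neurons, was the scarcest of the 8 genes. Its levels in HMLE-Twist were 1.76, 1.52 and 1.31 FPKM in mock and 2.92, 2.24 and 2.21 FPKM after salinomycin. Its levels in HMLE-pBp were 3.71, 3.89 and 3.67 FPKM in mock and 3.34, 3.45 and 3.38 FPKM after salinomycin. The groups did not overlap in either line, with salinomycin above mock in HMLE-Twist and below it in HMLE-pBp. Such separation was common, since 40.1% of all tested genes did not overlap in HMLE-Twist and 41.4% did not in HMLE-pBp. ITPR1 rose in HMLE-Twist by 0.45 ± 0.10 (log2; adjusted p = 0.00519 by limma), and its change in HMLE-pBp, -0.12 ± 0.10, missed the threshold (adjusted p = 0.424). The difference of the responses was 0.56 ± 0.14 (adjusted p = 0.0212). Since the pseudocount of 1 shrinks the change of so low a gene, the rise in HMLE-Twist came to 0.69 with voom, which works on the recovered reads. The difference missed the threshold without HMLE-Twist salinomycin replicate 1 (adjusted p = 0.0509) and without HMLE-pBp mock replicate 2 (adjusted p = 0.0558).

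ITPR2, the type 2 receptor, showed no change past the threshold in either line. Its levels were 3.37, 2.47 and 2.07 FPKM in HMLE-Twist mock, 3.29, 3.23 and 2.71 FPKM in HMLE-Twist salinomycin, 6.70, 6.61 and 5.57 FPKM in HMLE-pBp mock and 6.81, 6.42 and 5.96 FPKM in HMLE-pBp salinomycin libraries. Mock and salinomycin libraries overlapped in both lines. The 95% interval of its change was -0.10 to 0.45 (log2) in HMLE-Twist and -0.25 to 0.30 in HMLE-pBp. Without HMLE-Twist mock replicate 1 its rise in that line, 0.32, passed the threshold (adjusted p = 0.0461).

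Summed over the 3 receptor genes, the level went from 21.98 ± 1.48 FPKM (SD, n = 3) to 41.7 ± 3.28 FPKM with salinomycin in HMLE-Twist, and from 95.05 ± 6.49 to 94.2 ± 8.27 FPKM in HMLE-pBp. ITPR3 made up most of that sum in every library, between 77.9% and 90.7%. Its mean share was 81.1% in HMLE-Twist mock, 86.7% after salinomycin, and 89.4% and 89.5% in the HMLE-pBp groups. ITPR2 supplied 12.0% of the sum in HMLE-Twist mock and 7.41% after salinomycin.

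**Figure D2:**
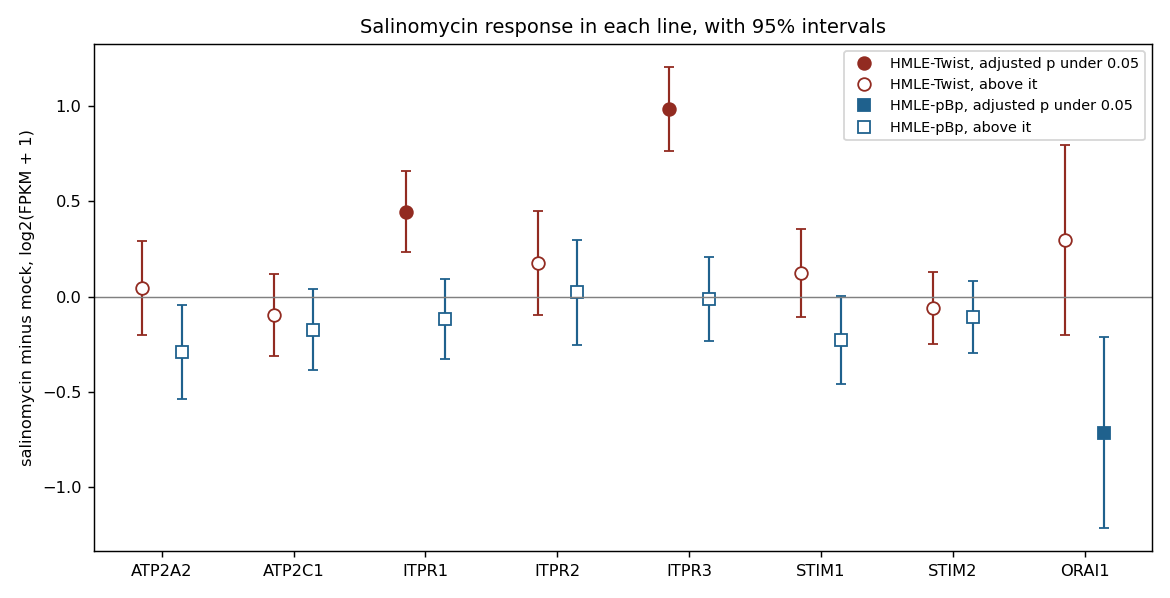
Change with salinomycin for each of the 8 genes (vertical axis, salinomycin minus mock, log2(FPKM + 1)) in HMLE-Twist (circles) and HMLE-pBp (squares), with 95% intervals from limma; filled symbols have an adjusted p under 0.05. ITPR3 at 0.98 and ITPR1 at 0.45 are filled in HMLE-Twist, and ORAI1 at -0.71 is filled in HMLE-pBp.

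ORAI1 forms the pore of store-operated entry. Its levels in HMLE-pBp were 24.9, 29.05 and 34.1 FPKM in mock and 11.5, 20.0 and 22.7 FPKM after salinomycin. Its levels in HMLE-Twist were 12.3, 13.8 and 18.5 FPKM in mock and 19.6, 14.7 and 20.998 FPKM after salinomycin. In HMLE-pBp every salinomycin library lay below every mock library, with replicate 1 the lowest of its group, and in HMLE-Twist the groups overlapped. In HMLE-pBp 41.4% of tested genes did not overlap between treatments. The fall in HMLE-pBp was -0.71 ± 0.23 (log2; 0.61-fold; adjusted p = 0.0490 by limma). The change in HMLE-Twist was 0.30 ± 0.23 (adjusted p = 0.378). The difference of the responses, 1.01 ± 0.32 with a 95% interval of 0.30 to 1.72, missed the threshold (adjusted p = 0.0594) and passed it with replicates paired within each line (adjusted p = 0.00429). The fall in HMLE-pBp lost its call in 13 of 22 alternatives, and without salinomycin replicate 1 of that group it came to -0.43 (adjusted p = 0.176). With replicates paired within each line the fall kept its call (adjusted p = 0.00333 by limma).

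ORAI3 and ORAI2, the other pore genes of the family, were not among the 8 but bear on ORAI1. ORAI3 stood at 4.86, 5.46 and 6.37 FPKM in HMLE-pBp mock and at 12.3, 15.2 and 16.2 FPKM after salinomycin. It rose there by 1.25 ± 0.17 (log2; adjusted p = 0.000736 by limma), a call kept in all 22 alternatives, while its change in HMLE-Twist was 0.22 ± 0.17 (adjusted p = 0.396). The difference of the ORAI3 responses was -1.03 ± 0.25 (adjusted p = 0.0202), which missed the threshold without HMLE-Twist salinomycin replicate 1 (adjusted p = 0.0556). ORAI2 rose in both lines, by 0.63 ± 0.13 in HMLE-Twist (adjusted p = 0.00411) and by 0.61 ± 0.13 in HMLE-pBp (adjusted p = 0.00799).

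The summed level of the 3 ORAI genes in HMLE-pBp was 36.5 ± 5.81 FPKM (SD, n = 3) in mock and 35.6 ± 8.34 FPKM after salinomycin. Within that sum the share of ORAI1 went from 80.6, 80.2 and 80.3% to 43.7, 52.3 and 53.5%, and the share of ORAI3 from 15.73, 15.08 and 14.997% to 46.9, 39.8 and 38.3%. No salinomycin library overlapped a mock library in either share. In HMLE-Twist the mean share of ORAI1 was 54.9% in mock and 52.8% after salinomycin, and that of ORAI3 28.8% and 26.3%, with overlapping libraries. The ORAI1 share in the HMLE-pBp salinomycin libraries thus lay near that in both HMLE-Twist groups, while the ORAI3 share lay above it.

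**Figure D3:**
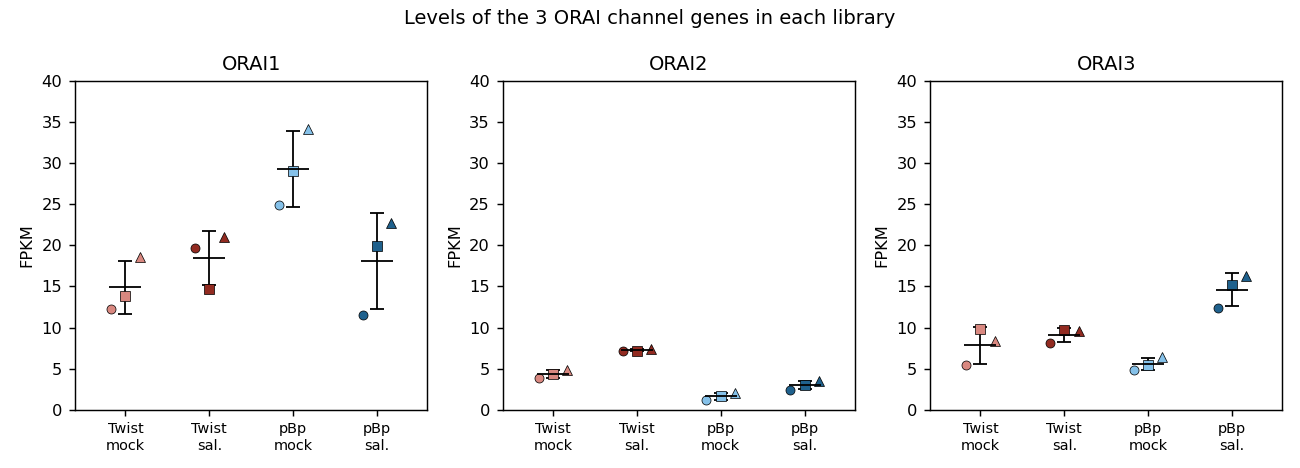
Level of ORAI1, ORAI2 and ORAI3 (vertical axis, FPKM, the same range in each panel) in the 12 libraries, with symbols, means and SD bars (n = 3) as for the 8 genes. In HMLE-pBp, ORAI1 goes from 24.9 to 34.1 FPKM in mock down to 11.5 to 22.7 FPKM with salinomycin, and ORAI3 from 4.86 to 6.37 FPKM up to 12.3 to 16.2 FPKM.

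The STIM genes encode the sensors of the ER store, STIM1 for strong depletion and STIM2 for small falls in store calcium. STIM1 stood at 10.0, 11.7 and 12.4 FPKM in HMLE-Twist mock and at 11.5, 12.4 and 13.6 FPKM after salinomycin. In HMLE-pBp it stood at 26.6, 28.2 and 32.4 FPKM in mock and at 22.3, 25.7 and 26.0 FPKM after salinomycin. The HMLE-Twist groups overlapped, and in HMLE-pBp each salinomycin library lay below each mock library, where 41.4% of tested genes did not overlap. The change in HMLE-pBp, -0.23 ± 0.11 (log2), missed the threshold in the unpaired test (adjusted p = 0.153 by limma) and passed it with replicates paired within each line (adjusted p = 0.0246). The difference of the STIM1 responses, 0.35 ± 0.15, likewise had an adjusted p of 0.136 unpaired and 0.0199 paired. STIM2 ranged from 7.90 to 9.37 FPKM in HMLE-Twist mock, from 7.89 to 8.27 FPKM in HMLE-Twist salinomycin, from 18.6 to 20.9 FPKM in HMLE-pBp mock and from 16.7 to 19.7 FPKM in HMLE-pBp salinomycin libraries. Its changes, -0.06 ± 0.09 in HMLE-Twist and -0.11 ± 0.09 in HMLE-pBp, missed the threshold in both. STIM1 made up 57.3 to 60.7% of the summed STIM level in the 4 groups on average.

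ATP2A2 encodes SERCA2, the pump that fills the ER. Its levels were 60.6, 48.7 and 55.4 FPKM in HMLE-Twist mock and 56.3, 53.6 and 59.6 FPKM after salinomycin. In HMLE-pBp they were 163, 184 and 204 FPKM in mock and 131, 164 and 155 FPKM after salinomycin. Mock and salinomycin libraries overlapped in both lines. The change in HMLE-pBp, -0.29 ± 0.11 (log2), missed the threshold in the unpaired test (adjusted p = 0.0903 by limma) and passed it with replicates paired within each line (adjusted p = 0.0137). That in HMLE-Twist was 0.05 ± 0.11 (adjusted p = 0.821). The difference of the responses, 0.34 ± 0.16, had an adjusted p of 0.172 unpaired and 0.0341 paired. ATP2A2 held between 98.4% and 99.9% of the summed SERCA level in each library, since ATP2A1 and ATP2A3 stayed under 1 FPKM. Its recovered gene length was 1.52 times the reference length. Whether that lowers its FPKM beside the other genes was not tested. The same length enters all 12 libraries, which leaves its fold changes nearly untouched.

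ATP2C1 encodes SPCA1, the pump that supplies calcium and manganese to the Golgi. It stood at 39.5, 33.8 and 36.2 FPKM in HMLE-Twist mock, 33.0, 33.1 and 36.0 FPKM in HMLE-Twist salinomycin, 55.6, 64.6 and 63.1 FPKM in HMLE-pBp mock and 47.9, 60.3 and 54.5 FPKM in HMLE-pBp salinomycin libraries. The treatments overlapped in both lines. The change was -0.10 ± 0.10 (log2) in HMLE-Twist and -0.17 ± 0.10 in HMLE-pBp, neither past the threshold. ATP2C2, the second SPCA gene, had no read in the HMLE-Twist mock libraries and supplied 3.90% of the summed SPCA level in HMLE-pBp mock libraries.

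Set against the shares of all tested genes given above, 2 of the 8 rose in HMLE-Twist and 1 fell in HMLE-pBp. Of the 8, 2 had a called difference of responses, where 13.6% of tested genes had one. With replicates paired within each line, 3 of the 8 fell in HMLE-pBp and 5 had a called difference, but the same pairing raised the genes called from 2209 to 4287 and from 1604 to 3819. The median change of the 8 genes was 0.15 (log2) in HMLE-Twist and -0.14 in HMLE-pBp, where the median over all tested genes was -0.01 in both. Without HMLE-pBp salinomycin replicate 1, 1166 genes were called in HMLE-pBp and none of the 8 was, against 2209 and 1 with it. At an unadjusted p under 0.05 limma gave 1 of the 8 without that library and 2 with it, and voom called 1 with it. The summed leukocyte markers, nearly all CD14, went from 19.4 to 29.6 FPKM in HMLE-pBp mock down to 6.37 to 15.5 FPKM after salinomycin, and their part in the HMLE-pBp results was not tested.

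The lines differed more than the treatments did. Among mock libraries all 8 genes were lower in HMLE-Twist, where 37.2% of all tested genes were lower and 36.1% higher, and for all 8 the libraries of the lines did not overlap, as for 73.8% of tested genes. In bulk RNA, fewer cells that express a gene and less RNA per cell cannot be told apart. ITPR3 differed by -2.19 ± 0.10 (log2; adjusted p = 1.30e-09 by limma) and ATP2A2 by -1.72 ± 0.11 (adjusted p = 3.38e-08). STIM1 differed by -1.28 ± 0.11, STIM2 by -1.13 ± 0.09, ITPR2 by -1.02 ± 0.13, ORAI1 by -0.94 ± 0.23, ITPR1 by -0.91 ± 0.10 and ATP2C1 by -0.73 ± 0.10. The median of the 8 was -1.07 and that of all tested genes -0.0028. The TWIST1 and marker levels given above separate the same libraries, and their part in these differences was not tested.

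After salinomycin 7 of the 8 remained lower in HMLE-Twist, where 32% of tested genes were lower. ORAI1 was the exception, with a difference of 0.07 ± 0.23 (log2), a 95% interval of -0.43 to 0.57 and overlapping libraries. ITPR3 differed by -1.20 ± 0.10 and ITPR1 by -0.35 ± 0.10 (adjusted p = 5.21e-07 and 0.00697 by limma). The median of the 8 was -0.89 and that of all tested genes 0.01. Scaling by total reads in place of median ratios put the median gene at 0.13 between mock groups and at 0.14 between salinomycin groups, and moved the share of called genes that were higher in HMLE-Twist after salinomycin from 49.5% to 60.6%. The 8 genes kept their calls in both comparisons under that scaling.

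The order of the 8 levels differed between the lines in mock libraries. In HMLE-pBp it ran ATP2A2 (184 ± 20.7 FPKM, SD, n = 3), ITPR3 (84.999 ± 6.85), ATP2C1 (61.1 ± 4.83), ORAI1 (29.3 ± 4.62), STIM1 (29.1 ± 3.03), STIM2 (19.7 ± 1.15), ITPR2 (6.29 ± 0.626) and ITPR1 (3.76 ± 0.116). ORAI1 and STIM1 did not differ there beyond their spread. In HMLE-Twist it ran ATP2A2 (54.9 ± 5.99), ATP2C1 (36.5 ± 2.86), ITPR3 (17.8 ± 1.31), ORAI1 (14.9 ± 3.26), STIM1 (11.4 ± 1.25), STIM2 (8.46 ± 0.795), ITPR2 (2.64 ± 0.666) and ITPR1 (1.53 ± 0.227). The ranges of ITPR3 and ORAI1, and of ORAI1 and STIM1, overlapped over the HMLE-Twist mock libraries. Within each of these libraries ITPR3 stood above ORAI1 and ORAI1 above STIM1. In replicate 3 ITPR3 and ORAI1 were close, at 18.9 and 18.5 FPKM. ITPR3 thus stood above ATP2C1 in each HMLE-pBp mock library and below it in each HMLE-Twist mock library.

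**Figure D4:**
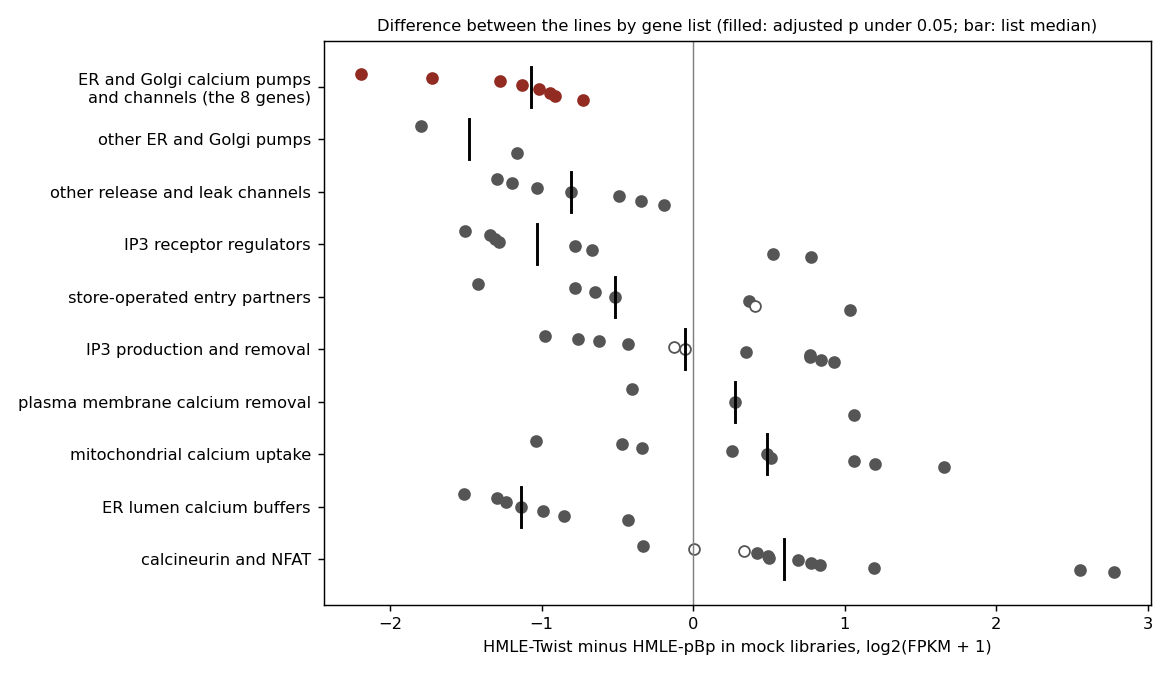
Difference between the lines in mock libraries (horizontal axis, HMLE-Twist minus HMLE-pBp, log2(FPKM + 1)) for the 8 genes and for tested genes of 9 other calcium lists; each point is a gene, filled where the adjusted p was under 0.05, and the bar is the list's median. All 8 points lie below 0, with a median of -1.07, while the calcineurin and NFAT list has its median at 0.60.

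Other pumps and release channels lay on the same side between the lines. Of 6 further ER and Golgi pumps and pump regulators 2 were tested, and both were lower in HMLE-Twist mock libraries, TMEM165, a Golgi ion transporter, by -1.16 and ATP2C2 by -1.80 (log2). ATP2C2 had no read in the HMLE-Twist mock libraries, so the pseudocount limits that size, which ranged from -8.65 to -1.71 over the alternatives. TMEM165 rose with salinomycin in HMLE-Twist by 0.40 ± 0.09 (adjusted p = 0.00720 by limma), and the difference of its responses was 0.51 ± 0.13 (adjusted p = 0.0250). That difference missed the threshold in 5 of 21 alternatives, without HMLE-Twist mock replicate 2, HMLE-Twist salinomycin replicate 1 or 3, or HMLE-pBp mock replicate 2 or 3 (adjusted p from 0.0541 to 0.0709). All 7 tested release and leak channels were lower in HMLE-Twist mock libraries, with a median of -0.81, among them TMCO1, a channel that lets calcium out of an overfilled ER, at -1.29. With salinomycin 1 of the 7 fell in HMLE-Twist, and 1 rose and 2 fell in HMLE-pBp. With replicates paired within each line, 1 rose and 1 fell in HMLE-Twist, and 1 rose and 3 fell in HMLE-pBp. TMEM203 fell in both lines, by -0.26 ± 0.08 in HMLE-Twist and -0.33 ± 0.08 in HMLE-pBp. Its call was lost in 6 of 22 alternatives in HMLE-Twist, including without mock replicate 2 or 3 or any salinomycin library of that line (adjusted p up to 0.0858), and in 2 of 22 in HMLE-pBp, without mock replicate 2 or 3 (up to 0.0637).

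Genes that act on IP3 receptors included the largest salinomycin response of these lists. ITPRIP, which encodes a protein that binds IP3 receptors, stood at 6.10, 6.996 and 7.63 FPKM in HMLE-Twist mock and at 22.7, 16.4 and 22.6 FPKM after salinomycin. In HMLE-pBp it stood at 15.9, 20.0 and 19.9 FPKM in mock and at 21.97, 19.9 and 18.5 FPKM after salinomycin. It rose in HMLE-Twist by 1.44 ± 0.14 (log2; adjusted p = 3.42e-05 by limma), its change in HMLE-pBp was 0.11 ± 0.14 (adjusted p = 0.590), and the difference was 1.32 ± 0.19 (adjusted p = 0.00170). Its paralogue ITPRIPL2 rose in HMLE-Twist by 0.66 ± 0.11, with a difference of 0.83 ± 0.15 (adjusted p = 0.00617). CISD2, an ER iron-sulphur protein, fell in both lines, by -0.37 ± 0.11 and -0.40 ± 0.11. Its call was lost in 5 of 22 alternatives in each line (adjusted p up to 0.112 and 0.0996). Those for HMLE-Twist include leaving out its mock replicate 1 or 2 or its salinomycin replicate 2 or 3, and those for HMLE-pBp are leaving out any of its mock libraries or its salinomycin replicate 1 or 3. Of the 8 tested genes of this list 2 rose and 1 fell in HMLE-Twist and 1 fell in HMLE-pBp, where 2 rose and 2 fell with replicates paired within each line. Paired in this way, 3 rose and 1 fell in HMLE-Twist. Between mock groups 2 were higher in HMLE-Twist and 6 lower, with a median of -1.03.

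Among partners of store-operated entry, 2 of 7 tested genes rose in each line and 0 fell by limma. With replicates paired within each line, 2 rose and 1 fell in HMLE-Twist and 3 rose in HMLE-pBp. ORAI2 was common to both, joined by ESYT2, a tether between the ER and the plasma membrane, at 0.36 ± 0.08 (log2) in HMLE-Twist, and by ORAI3 in HMLE-pBp. Between mock groups 2 were higher in HMLE-Twist, with ORAI2 at 1.04, and 4 were lower, with ESYT2 at -1.42. The median was -0.52.

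Enzymes that make and remove IP3 were split between the lines, with 5 of 11 tested genes higher and 4 lower in HMLE-Twist mock libraries and a median of -0.05 (log2). With salinomycin 1 rose and 3 fell in HMLE-Twist, among them INPP5A, which inactivates IP3, at -0.44 ± 0.09, and 0 were called in HMLE-pBp by limma, against 3 at an unadjusted p under 0.05, 1 called with voom and 3 called with replicates paired within each line. ITPKB and ITPKC, kinases that consume IP3, were lower in HMLE-Twist mock libraries by -0.98 and -0.76. INPP5A and PLCE1 were higher there, by 0.85 and 0.93. The related kinase gene ITPKA averaged 2.46 FPKM in HMLE-Twist mock and 1.01 FPKM in HMLE-pBp mock libraries.

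Proteins that bind calcium inside the ER or the Golgi followed the pumps between the lines. All 7 tested were lower in HMLE-Twist mock libraries, with a median of -1.14 (log2), led by CANX, the chaperone calnexin, at -1.51. With salinomycin 2 rose in HMLE-Twist and 1 in HMLE-pBp, where 1 also fell with replicates paired within the line. HSPA5, the chaperone BiP and a standard readout of ER stress, rose in both lines. The rise was 0.50 ± 0.11 in HMLE-Twist (adjusted p = 0.00555 by limma) and 0.40 ± 0.11 in HMLE-pBp (adjusted p = 0.0264). ATP2A2 passed the threshold in neither line in the unpaired test. With replicates paired within each line its change in HMLE-pBp, -0.29, passed it (adjusted p = 0.0137 by limma). The HSPA5 call in HMLE-pBp was lost in 5 of 22 alternatives, among them without HMLE-pBp mock replicate 1, salinomycin replicate 1 or salinomycin replicate 2 (adjusted p up to 0.0841). CALR, the main calcium-binding protein of the ER lumen, changed by 0.03 ± 0.09 and 0.06 ± 0.09, past the threshold in neither line.

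Routes of calcium outside the ER differed in direction. Of 9 tested genes of mitochondrial uptake 6 were higher and 3 lower in HMLE-Twist mock libraries, among them MICU3, a regulator of the uniporter, at 1.202 (log2) and LETM1, a protein of the inner mitochondrial membrane, at -1.04. MICU3 had almost no reads in HMLE-pBp, so the pseudocount limits the size of its difference, which ranged from 1.14 to 5.34 over the alternatives. With salinomycin 2 of the 9 fell in HMLE-Twist and 1 in HMLE-pBp, where 1 also rose with replicates paired within the line. Paired in this way, 3 of the 9 fell in HMLE-Twist. MCU, the uniporter pore, fell with salinomycin in HMLE-Twist by -0.57 ± 0.11 (adjusted p = 0.00332 by limma). Of 3 tested genes of calcium removal at the plasma membrane 2 were higher in HMLE-Twist mock libraries, the pump ATP2B1 at 1.06 and the exchanger SLC8A1 at 0.27, and ATP2B4 was lower at -0.41. The call of SLC8A1 was lost in 13 of 22 alternatives, with adjusted p-values from 0.00411 to 0.178. ATP2B4 rose with salinomycin in HMLE-pBp by 0.41 ± 0.10 (adjusted p = 0.0140), the only call of the 3 in either line, and missed the threshold without HMLE-pBp mock replicate 3 or salinomycin replicate 2 (adjusted p up to 0.0559). With replicates paired within each line 1 of the 3 also fell in each. Of 12 tested genes of calcineurin and NFAT signalling, which reads out sustained calcium entry, 9 were higher and 1 lower in HMLE-Twist mock libraries, with NFATC4 at 2.78 and RCAN2 at 2.55. RCAN2 had almost no reads in HMLE-pBp, so the pseudocount limits the size of its line difference, which ranged from 2.45 to 9.02 over the alternatives. Of the 12 genes, 4 fell with salinomycin in HMLE-Twist, led by RCAN2, a calcineurin regulator, at -1.01 ± 0.12. In HMLE-pBp 0 were called by limma and 0 with voom, against 2 at an unadjusted p under 0.05 and 4 that rose with replicates paired within each line. Paired in this way, 5 fell in HMLE-Twist.

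The genes whose pattern over the 12 libraries lay closest to each member were found by the root mean square difference of centred log2(FPKM + 1). For ITPR3 the closest was PLXNA2, a plexin receptor, at 0.06, followed by the integrin subunit gene ITGA3 and B4GALT5 at 0.15 each, where ITPR3 itself had an SD of 0.96. For ATP2A2 they were AGPAT5, SLC16A1 and TAP2, all at 0.09. STIM1 lay closest to PDIA4, a chaperone of the ER, at 0.07, and STIM2 to CD58, SGPP1 and TMCO1 at 0.08. ATP2C1 lay closest to METTL21A at 0.05, ITPR2 to MACF1 at 0.06 and ITPR1 to USP31 at 0.08. ORAI1 had the loosest nearest neighbour of the 8, ERF at 0.13. Since the line difference dominates the spread over these libraries, likeness mostly describes the lines.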

How the data were processed

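The authors deposited 4 tables, 1 per group. Per the submitters' processing notes DESeq2 1.1.0 and build hg19 were used; the sources used here do not state the aligner, counter or gene models. The deposited mock tables hold FPKM scaled within each table, and the deposited salinomycin tables, though named FPKM, hold log2 values shrunk toward each gene's mean. Whole reads were therefore worked out for each of the 12 libraries. Among mock values 98.8% of 12918 genes with over 100 reads gave a whole gene length at once, and 453 of these genes were left out because their multiple could not be settled. Among salinomycin values 98.5% (HMLE-Twist) and 96.1% (HMLE-pBp) came out within 0.1 of a whole read. Among genes averaging over 10000 reads, the range of ATP2A2, of ITPR3 in HMLE-pBp and of HSPA5, these shares were 77.2% and 60.1%. For genes averaging over 1000 reads no value lay further than 0.0519% from a whole read. Rounding alone keeps that distance so small at such depth, so it does not test the recovery. Mock and salinomycin reads thus come from different recoveries, and an error in either would enter the treatment comparisons.

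FPKM was recomputed from these reads with median-ratio scaling across the 12 libraries and each gene's recovered length. Genes at 1 FPKM or more in at least 3 libraries were fitted on log2(FPKM + 1) with limma 3.58.1 (R 4.3.3), all 4 groups together, without a replicate block. Since the pseudocount of 1 enters, fold changes are understated for low genes. On tables simulated from the recovered lengths and mean reads of settled genes, 99.8% of settled genes had all mock reads recovered. Since the simulation took those lengths as true, it checks the arithmetic and cannot show that the real reads are right. In simulated comparisons over 11785 (HMLE-Twist) and 11773 (HMLE-pBp) genes, the fit called 65% of genes changed 1.5-fold and 94% of those changed 2-fold in each line. Same-numbered mock and salinomycin libraries deviated together within each line (r across genes 0.453, 0.427 and 0.716 in HMLE-Twist, 0.534, 0.229 and 0.594 in HMLE-pBp), so that the numbers pair libraries within a line. Between the lines, same-numbered libraries had r from 0.209 to 0.434 for replicate 1 and from 0.495 to 0.664 for replicate 3. For replicate 2 it was 0.181 in 1 pair of groups and from 0.0436 to 0.0658 in the other 3, so that pairing across the lines was used only as an alternative. The reads behind each level limit its precision through counting error, and the replicates carry that error. GENCODE 29 (GRCh38), another build than the files', served for gene names and lengths only.

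Named genes were the 8 members, up to 2 called rises and 2 called falls of largest size per list and comparison, and for each member the 3 genes most alike; CALR was added after its values were seen, and some single-gene results are not reported here. The members and lists were chosen with earlier results of these data known. The alternatives were other pseudocounts, filters and scalings, voom weights, replicate blocks, fits on 2 groups, unsettled genes kept, and each library left out.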

Additional observations from a re-analysis of the deposited data

Results flagged for a closer look

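The salinomycin responses of the following genes differed between HMLE-Twist and HMLE-pBp by an interaction term in the limma fit (adjusted p under 0.05); each value is the response in HMLE-Twist minus that in HMLE-pBp on the log2(FPKM + 1) scale. Among the release channels, ITPR3 differed by 0.99 and ITPR1 by 0.56. ITPRIP differed by 1.32, ITPRIPL2 by 0.83 and the Golgi transporter TMEM165 by 0.51. Lower responses in HMLE-Twist were found for ORAI3, at -1.03, the plasma membrane pump ATP2B4, at -0.61, the uniporter regulator MICU2, at -0.57, and the calcineurin pathway genes RCAN2, at -1.01, and CALM2, at -0.53. RCAN2 had at most 1 read in any HMLE-pBp library, so that its difference is the fall in HMLE-Twist alone, and with voom it missed the threshold (adjusted p = 0.632). The MICU2 difference lost its call in 14 of 21 alternatives (adjusted p from 0.00438 to 0.124), among them 10 of the 12 with 1 library left out, and that of CALM2 in 8 of 21 (0.00228 to 0.0816), all with 1 library left out. The losses for TMEM165, ITPR1 and ORAI3 stand beside their values above. ITPR3, ITPRIP, ITPRIPL2 and ATP2B4 kept their calls in all 21. Groups of 3 libraries are too small for a test of a single outlying value, and the effect of each library was instead read by leaving it out.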

How the results depend on the processing

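Of 862 values of the 8 genes under 22 alternatives, 824 kept their direction and side of the threshold. Line comparisons of 7 genes kept both in every alternative run; the exception was ORAI1 after salinomycin, whose uncalled difference ranged from -0.21 to 0.25 as libraries were left out. With replicate blocks within each line, 4742 genes were called in HMLE-Twist, 4287 in HMLE-pBp and 3819 for the difference of responses, with 3 of the 8 genes called in HMLE-pBp and 5 for the difference. With a replicate block shared by both lines, 3925 and 3430 genes were called in HMLE-pBp and for the difference, and 2 and 4 of the 8; the pairing changed no other call of the 8 genes. In HMLE-pBp 0 of the 8 were called with a pseudocount of 0.1, without the filter, with upper-quartile scaling or with only its own groups in the fit (ORAI1 adjusted p = 0.0549, 0.0920, 0.0523 and 0.0929 by limma), against 2 at an unadjusted p under 0.05 in the test as reported. At a mean FPKM of at least 5, ITPR1 and ITPR2 are not tested, which leaves 1 of the 8 called in HMLE-Twist and 1 for the difference. Leaving out 1 library gave 2151 to 3386 genes called in HMLE-Twist and 2 to 3 of the 8, 1083 to 3092 genes called in HMLE-pBp and 0 to 1 of the 8, and 751 to 2319 genes for the difference and 1 to 3 of the 8; ORAI1 in HMLE-pBp kept its call in 3 of 12 such fits, and a group left with 2 libraries shares the spread of the others. Without HMLE-pBp mock replicates 2 and 3 in turn, 1283 and 1083 genes were called in HMLE-pBp. Without HMLE-Twist mock replicate 2, HMLE-Twist salinomycin replicates 1 and 3, HMLE-pBp mock replicates 2 and 3 and HMLE-pBp salinomycin replicate 2 in turn, 861, 780, 787, 856, 751 and 1046 genes had a called difference. Some uncalled values changed sign as libraries were left out: ATP2A2 (-0.037 to 0.12) and STIM2 (-0.10 to 0.0081) in HMLE-Twist, ITPR2 (-0.051 to 0.065) and ITPR3 (-0.079 to 0.075) in HMLE-pBp, and the differences of ATP2C1 (-0.0083 to 0.16) and STIM2 (-0.0090 to 0.12). The cause of these changes was not tested. ITPR1, with 312 to 838 reads per library, and ORAI1, with 351 to 1143, had the fewest reads of the 8 genes.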
